A study of Mus musculus with 46 samples.

Results

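Pecam1, Cdh5, Kdr, Flt1, Tek, Esam, Plvap, Emcn and Tie1, 9 genes that mark the endothelial cells lining blood vessels, were followed with Vegfa across every islet and liver group of the study. The genes were chosen by name, and all 10 were found among the 55487 genes listed. All 10 passed the filter on low counts in each of the 3 experiments, so no member was left out.

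The labels put 46 libraries of mouse total RNA in 11 groups, and each library gave a whole-number read count per gene. The first experiment held islets labelled Tfam control (5 female and 3 male libraries) or Tfam KO (4 female and 2 male). The second held islets labelled Clec16a control (6 libraries on HFD, 4 on RFD) or Clec16a KO (5 on HFD, 4 on RFD). The third held livers: 6 control libraries, 4 of an Mfn DKO and 3 of a Tfam KO. AAV appears in their descriptions. The islets had a night in culture ahead of RNA isolation, whereas the livers went straight to flash freezing. The labels do not write out HFD, RFD or AAV, and give no age, no Cre driver or promoter, no account of pooling, and sex for the Tfam islets alone. The design text says that both sexes were used. Tfam encodes mitochondrial transcription factor A. The product of Clec16a sits on endolysosomes and takes part in mitophagy, and the mitofusins, from Mfn1 and Mfn2, join mitochondria into networks.

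Endothelial cells are recognised by junction proteins and by receptors for growth factors that other cells release. VEGF-A, the product of Vegfa, is made by the epithelial cells of a tissue, among them the beta cells of islets, and acts on the receptors KDR and FLT1 of nearby vessels. Islet capillaries and liver sinusoids are both fenestrated, that is, perforated by pores, and islets carry a denser capillary net than the surrounding exocrine pancreas. In RNA from whole tissue, fewer endothelial cells and less RNA per endothelial cell cannot be told apart.

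Promoter sequences were at hand for 6 of the 10 genes, from RefSeq on GRCm38.p6, and are shown because 5 of these genes were higher together in the Clec16a KO islets while Vegfa was not. Each line gives the 250 bases before the annotated start, 5′ to 3′ on the gene's strand, with the 4-letter core GGAA (or TTCC on the other strand), which ETS factors such as ERG and FLI1 read, in capitals.

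Kdr: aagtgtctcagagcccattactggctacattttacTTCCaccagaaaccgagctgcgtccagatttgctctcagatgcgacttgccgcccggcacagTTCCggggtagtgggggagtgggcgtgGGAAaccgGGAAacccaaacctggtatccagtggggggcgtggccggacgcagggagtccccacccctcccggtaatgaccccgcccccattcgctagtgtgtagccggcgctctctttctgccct
Flt1: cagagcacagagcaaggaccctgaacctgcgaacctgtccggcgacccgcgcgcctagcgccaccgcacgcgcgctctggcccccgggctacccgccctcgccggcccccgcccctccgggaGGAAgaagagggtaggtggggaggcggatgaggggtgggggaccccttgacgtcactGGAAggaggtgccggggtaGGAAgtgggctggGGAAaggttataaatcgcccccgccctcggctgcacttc
Tek: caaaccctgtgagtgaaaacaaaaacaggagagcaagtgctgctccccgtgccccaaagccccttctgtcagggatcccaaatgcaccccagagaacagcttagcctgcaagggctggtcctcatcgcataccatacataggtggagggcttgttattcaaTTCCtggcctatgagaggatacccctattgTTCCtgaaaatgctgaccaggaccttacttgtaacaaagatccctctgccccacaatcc
Tie1: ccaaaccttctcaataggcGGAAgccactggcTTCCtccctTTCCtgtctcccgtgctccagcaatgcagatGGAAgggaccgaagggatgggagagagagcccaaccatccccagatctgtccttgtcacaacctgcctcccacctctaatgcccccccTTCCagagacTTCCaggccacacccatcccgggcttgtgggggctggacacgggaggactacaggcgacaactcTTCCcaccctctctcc
Emcn: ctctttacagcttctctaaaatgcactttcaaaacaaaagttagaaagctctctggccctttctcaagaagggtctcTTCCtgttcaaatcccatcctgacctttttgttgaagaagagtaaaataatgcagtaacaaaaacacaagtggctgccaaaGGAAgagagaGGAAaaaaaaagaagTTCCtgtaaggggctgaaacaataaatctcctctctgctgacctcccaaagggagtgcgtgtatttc
Vegfa: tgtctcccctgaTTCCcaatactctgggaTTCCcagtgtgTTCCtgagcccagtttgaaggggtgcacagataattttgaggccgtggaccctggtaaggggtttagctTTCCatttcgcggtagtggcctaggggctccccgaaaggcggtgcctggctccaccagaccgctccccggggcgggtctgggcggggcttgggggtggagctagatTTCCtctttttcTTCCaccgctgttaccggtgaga

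The windows lie at chr5:75978456-75978705 (minus strand) for Kdr, chr5:147726012-147726261 (minus) for Flt1, chr4:94739039-94739288 (plus) for Tek and chr4:118489850-118490099 (minus) for Tie1. The Emcn window is chr3:137340828-137341077 (plus) and the Vegfa window chr17:46032378-46032627 (minus). The starts are those annotated in RefSeq, and they differ from the gene coordinates given below. By those coordinates the Tie1 window lies mostly inside the gene, and the Kdr and Emcn windows reach slightly into theirs. A search of both strands, extended to 50 bases after the start, found GGAA 7 times in Tie1, 6 times in Vegfa, 4 times each in Kdr, Flt1 and Emcn, and 2 times in Tek. It occurred in 93.45% of 32851 promoters of the same length, with a median of 3 matches, so its presence sets none of these genes apart. The longer form AGGAAG, which contains the core, was found 2 times in Emcn, 2 times in Flt1 and 1 time in Tie1, against 29.48% of all promoters with a match. No window held CCGGAAGT (2.877% of all promoters). The core of the hypoxia response element, ACGTG (16.57%), matched 1 time, in a second annotated Vegfa start. The ATF4-type motif TGATGNAA (3.452%) had no match in the windows. A match is a description of these letters and not a bound site. The GC content of the printed windows ran from 40.8% (Emcn) through 51.2% (Tek), 59.2% (Vegfa), 60.4% (Tie1) and 61.6% (Kdr) to 70.4% (Flt1), against a median of 52.4% over all promoters.

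Depth per library was 55223041 to 83342809 counts for Tfam islets. For Clec16a islets it was 16235173 to 55810879, the widest spread of the 3 experiments, and for livers 41961114 to 56894510. Tfam fell by 1.21 on the log2 scale in the Tfam KO islets and by 2.0 in the Tfam KO livers, and in the Mfn DKO livers Mfn1 fell by 2.0 and Mfn2 by 2.04. No drop in Clec16a RNA was seen for the libraries labelled Clec16a KO (log2 difference 0.13, adjusted p = 0.612, on RFD and 0.08, adjusted p = 0.74, on HFD), so RNA over the whole gene does not check those labels. Xist RNA was at 100 CPM or above in all 19 Clec16a islet libraries and in 3 of 6 control, 2 of 4 Mfn DKO and 2 of 3 Tfam KO livers. One library of the Clec16a islets stood apart from its group. In the library labelled Clec16a KO HFD replicate 4, 75 of 99 listed genes that were called when it was left out lay within the range of the 6 HFD control libraries. The same count was 4 of 61, 1 of 52, 0 of 45 and 8 of 60 for the other 4 libraries of its group. It held 692 CPM of Slc2a2 (the beta cell glucose transporter; controls 590.7 to 784.9, other KO libraries 170 to 223) and 4.688 CPM of Trib3 (controls 3.637 to 6.976, other KO libraries 58.14 to 92.72). The members' results and the list counts on HFD are therefore given with and without it.

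Among control libraries the 9 markers took very unequal shares in both tissues, as seen per gene length in the authors' TPM. Plvap, which encodes the protein of the diaphragms across fenestrae and vesicles, was the most abundant marker in each set, with a mean of 113.9 TPM in Tfam control islets, 153.1 in Clec16a control islets and 51.38 in control livers. It made up 52.32%, 57.32% and 43.91% of the sum of the 9. Tek was the least abundant in both islet sets (4.444 and 3.371 TPM), and Emcn in liver (1.566 TPM).

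**Figure D1:**
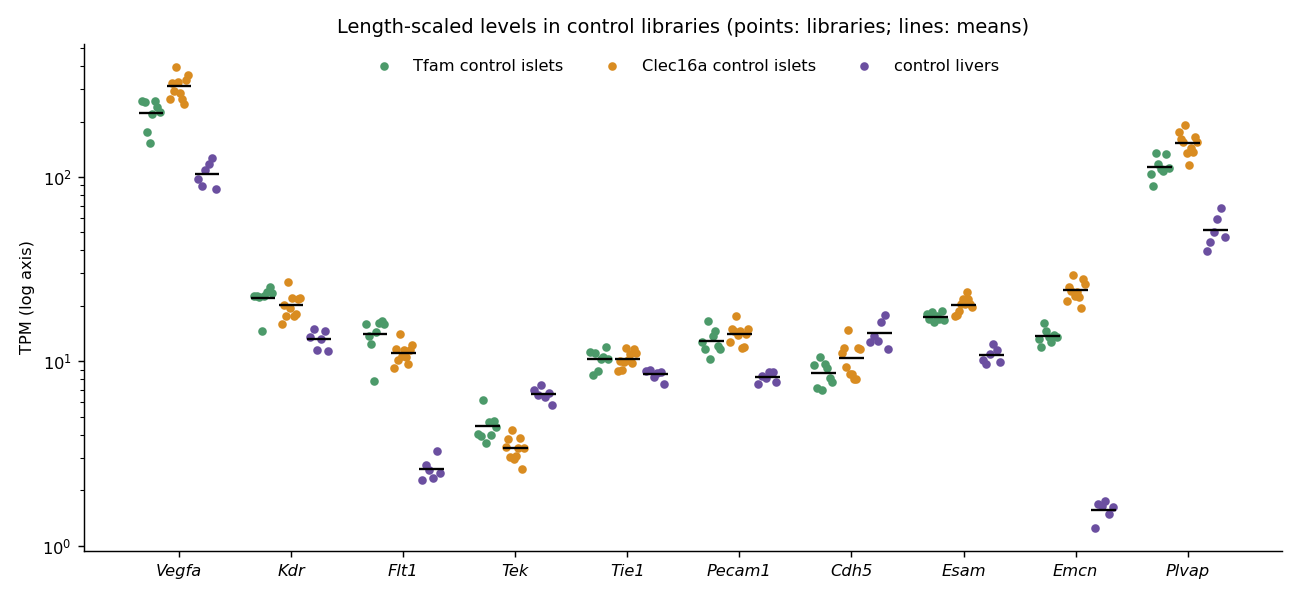
Level of each gene in the control libraries of the 3 experiments, as the authors' TPM on a log axis, with 1 point per library. Plvap stands highest among the markers in all 3 sets, and Emcn and Flt1 show the widest gap between islets and liver.

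The order of the markers differed between the tissues. Emcn, an endothelial surface glycoprotein, stood at 13.72 TPM in Tfam control islets and 24.25 TPM in Clec16a control islets against 1.566 TPM in liver, ratios of 8.761 and 15.49. Flt1, a VEGF receptor that also exists in a soluble form, stood at 14.12 and 11.12 TPM against 2.606 TPM, ratios of 5.418 and 4.267. For these 2 genes every islet library of the study lay above every liver library. The share of all genes that separate the tissues in this way is not given here, so the separation is not read as particular to these genes. Pecam1, Esam, Plvap and Vegfa also lay higher in islets, by ratios of 1.577 to 2.98, with no overlap among control libraries but with overlap once the KO libraries were added. Kdr had ratios of 1.676 and 1.528 and Tie1 of 1.218 and 1.216, with overlapping control libraries. Tek (0.6696 and 0.5079) and Cdh5 (0.6087 and 0.7313) had lower means in islets, and their control libraries overlapped too. The tissues come from separate experiments and only the islets were cultured, so tissue, experiment and culture cannot be told apart, and no test was made. The markers were detected in every group, in cultured islets as in liver.

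Most of the calls for these genes came from the Clec16a islets. On RFD, 8 of the 9 markers were called higher in KO islets and none lower, where called means an adjusted p of 0.05 or less over all genes tested. Over all 17254 genes tested 3.99% were called higher and 3.54% lower, 7.52% in all. On HFD all 9 were called higher, against 5.62% of all genes higher, 3.95% lower and 9.57% in all. The median log2 fold change of the 9 was 0.70 on RFD and 0.53 on HFD, while that of all genes tested was -0.0016 and -0.0019. Vegfa was called in neither diet. Expression is given below as CPM on library sizes scaled by the trimmed mean of M-values (TMM). The tests were quasi-likelihood F-tests of edgeR with Benjamini-Hochberg adjustment.

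**Figure D2:**
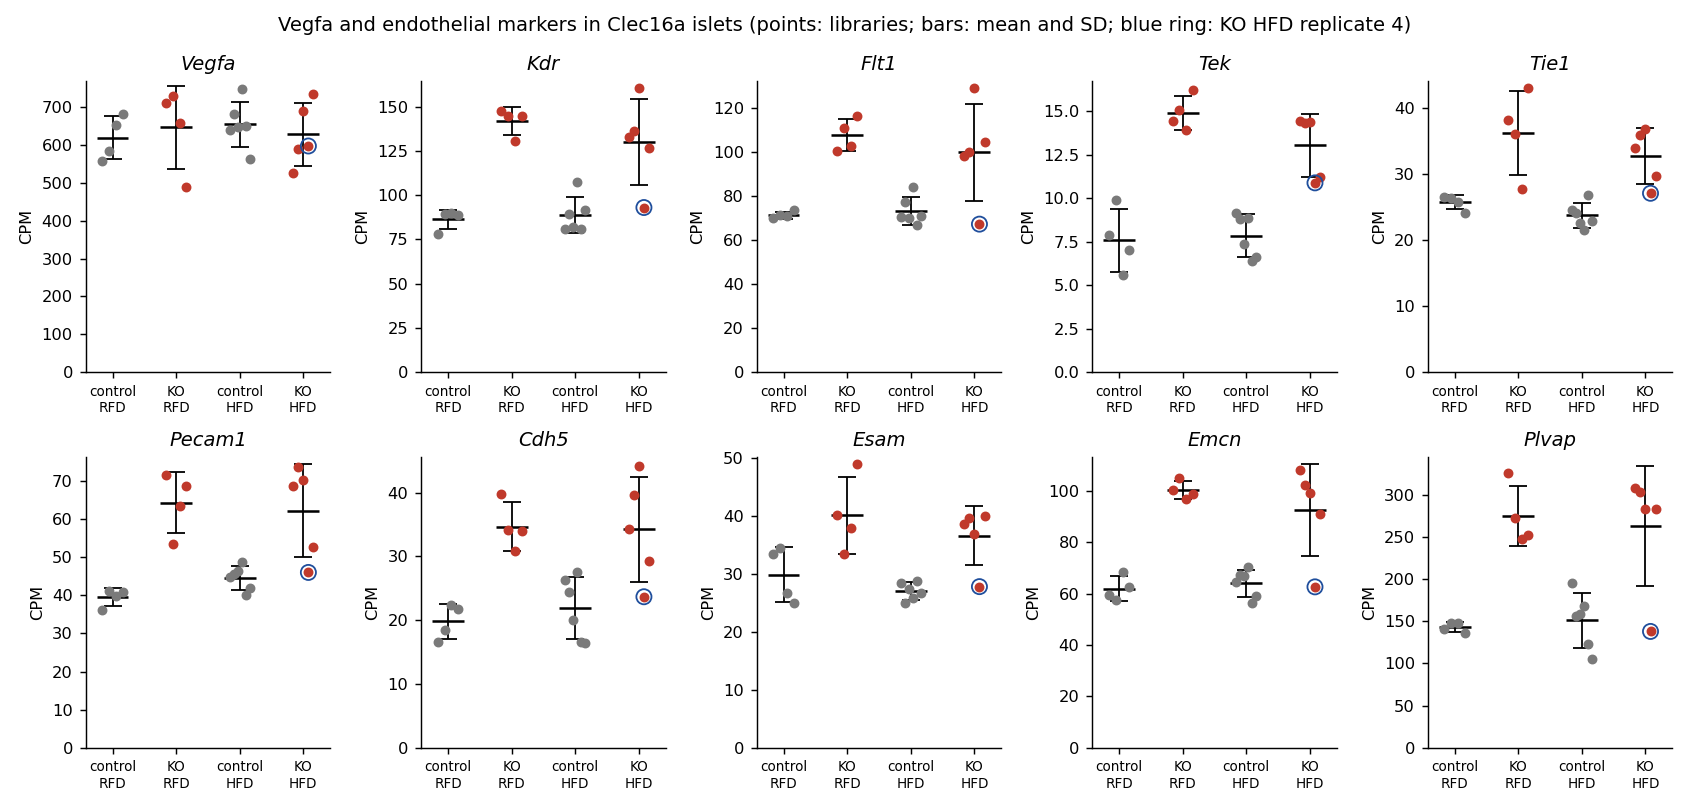
Level of each of the 10 genes in the 4 Clec16a groups, in TMM-scaled CPM, with 1 point per library and bars for the mean and SD. For 8 of the 9 markers every KO RFD library lies above the RFD controls (Esam overlaps), and on HFD the ringed library, KO HFD replicate 4, lies within the control range for all markers but Tek and Tie1. The 4 groups overlap for Vegfa. The share of all genes without overlap is not given here.

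The 2 VEGF receptors rose on both diets. Kdr (ENSMUSG00000062960, chr5:75932827-75978458, minus strand) encodes the main signalling receptor for VEGF-A. Its 4 KO RFD libraries held 147.4, 144.6, 130.4 and 144.9 CPM and its 4 control RFD libraries 78.17, 89.03, 89.7 and 88.5 CPM. All KO libraries lay above all controls. The log2 fold change was 0.72 ± 0.13 (SE), a fold of 1.64, with an adjusted p of 0.00375. On HFD the KO libraries held 132.7, 136.4, 160.3, 92.94 and 126.7 CPM, and the 6 controls 80.72 at the lowest, 85.63 at the median and 107.4 at the highest. The lowest KO value, that of replicate 4, fell within the control range and the other 4 above it. That was a log2 fold change of 0.55 ± 0.11 (adjusted p = 0.00342), and 0.65 ± 0.09 without replicate 4. Flt1 (ENSMUSG00000029648, chr5:147561604-147726011, minus strand) encodes the receptor that binds VEGF-A tightly and signals weakly. Its KO RFD libraries held 100.4, 111, 102.9 and 116.2 CPM against 69.88, 71.17, 70.69 and 73.54 CPM in controls, with no overlap. In log2 terms the difference was 0.59 ± 0.13 (fold 1.51, adjusted p = 0.0107). With HFD the KO libraries held 97.93, 100, 129.1, 67.2 and 104.7 CPM, and the controls 66.73, 70.59 and 83.9 CPM at the lowest, median and highest. Again 4 of 5 KO libraries lay above all controls. The log2 fold change was 0.45 ± 0.11 (adjusted p = 0.0158), and 0.56 ± 0.08 without replicate 4. The Flt1 call was lost without KO HFD replicate 3 (adjusted p = 0.0717) and with the replicate block (0.0668).

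The angiopoietin receptor Tek, also known as TIE2 (ENSMUSG00000006386, chr4:94739289-94874976, plus strand), had the highest fold of the 9 on RFD. It binds the angiopoietins, which steady or loosen vessels. Its KO RFD libraries held 14.41, 15.06, 13.9 and 16.19 CPM against 7.871, 9.877, 5.556 and 7.011 CPM in controls. That was a log2 fold change of 0.97 ± 0.16, a fold of 1.96, with an adjusted p of 0.00348. On HFD the 5 KO libraries held 14.42, 14.3, 14.34, 10.87 and 11.18 CPM and the controls 6.395, 8.053 and 9.122 CPM at the lowest, median and highest. Tek was one of 2 markers, with Tie1, whose HFD groups did not overlap even with replicate 4 included. In log2 terms the difference was 0.73 ± 0.14 (adjusted p = 0.00293), and 0.79 ± 0.14 without replicate 4. Tie1 (ENSMUSG00000033191, chr4:118471191-118490061, minus strand), an orphan receptor that pairs with TEK, held 38.19, 36.14, 27.76 and 43.04 CPM in KO RFD and 26.57, 26.42, 25.84 and 24.18 CPM in control RFD libraries. KO replicate 3 lay just above the highest control. The log2 fold change was 0.49 ± 0.12 (fold 1.41, adjusted p = 0.0166), and it was not called without control RFD replicate 4 (adjusted p = 0.0577) or without KO RFD replicate 4 (0.0654). On HFD the KO libraries held 34.04, 35.92, 36.91, 27.1 and 29.65 CPM, above the 21.48, 23.56 and 26.84 CPM of the controls (lowest, median, highest). That difference was 0.46 ± 0.10 on the log2 scale (adjusted p = 0.00798), and 0.52 ± 0.10 without replicate 4.

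The junction and adhesion genes come next. Pecam1, which encodes the adhesion molecule CD31 (ENSMUSG00000020717, chr11:106654217-106750628, minus strand), held 71.58, 53.55, 63.47 and 68.65 CPM in KO RFD and 36.05, 41.02, 39.87 and 40.95 CPM in control RFD libraries. The groups did not overlap. That was a log2 fold change of 0.70 ± 0.13 (fold 1.63, adjusted p = 0.00397). With HFD the KO libraries held 68.68, 73.63, 70.33, 45.99 and 52.55 CPM and the controls 40.08, 45.15 and 48.63 CPM at the lowest, median and highest, with replicate 4 inside the control range. In log2 terms the difference was 0.48 ± 0.11 (adjusted p = 0.00869), and 0.58 ± 0.10 without replicate 4. Cdh5, VE-cadherin, which joins endothelial cells to each other (ENSMUSG00000031871, chr8:104101625-104144511, plus strand), overlaps the antisense gene Gm29682, whose reads cannot be told apart from its own without strand. Its KO RFD libraries held 39.85, 34.13, 30.8 and 33.95 CPM against 16.62, 18.42, 22.45 and 21.72 CPM. All KO values exceeded all controls, with a log2 fold change of 0.81 ± 0.19 (fold 1.75, adjusted p = 0.0133). On HFD the KO libraries held 34.27, 39.68, 44.23, 23.67 and 29.22 CPM and the controls 16.4, 22.27 and 27.56 CPM at the lowest, median and highest. The log2 fold change there was 0.65 ± 0.16 (adjusted p = 0.0143), lost without KO HFD replicate 2 (adjusted p = 0.0511) or replicate 3 (0.0685). Without replicate 4 it was 0.76 ± 0.15 (adjusted p = 0.00124). Esam (ENSMUSG00000001946, chr9:37528078-37538319, plus strand), an adhesion molecule of endothelial tight junctions, was the exception on RFD. Its KO RFD libraries held 40.14, 33.38, 37.88 and 49.03 CPM and its controls 33.52, 34.45, 26.64 and 24.92 CPM, and the groups overlapped. The log2 fold change of 0.43 ± 0.13 had an adjusted p of 0.0506 with edgeR and 0.0257 with DESeq2. On HFD the values were 38.6, 39.74, 36.85, 27.81 and 40.03 CPM in KO and 25.07, 27.11 and 28.86 CPM at the lowest, median and highest in controls. Replicate 4 was the 1 KO library within the control range. Esam rose by 0.43 ± 0.11 there (adjusted p = 0.0189), and by 0.52 ± 0.10 without replicate 4. The Esam call was lost without KO HFD replicate 1 (adjusted p = 0.0531), without replicate 2 (0.0591) and with the replicate block (0.059).

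Emcn and Plvap, which mark capillary and fenestrated endothelium, completed the set. Emcn (ENSMUSG00000054690, chr3:137341067-137432185, plus strand) held 100.5, 105, 96.84 and 98.81 CPM in KO RFD and 59.4, 57.46, 68.57 and 62.64 CPM in control RFD libraries. The 2 groups were tight and far apart. The log2 fold change was 0.69 ± 0.12 (fold 1.62, adjusted p = 0.00386). With HFD the KO libraries held 108.2, 102.5, 99.25, 62.69 and 91.25 CPM and the controls 56.3, 65.72 and 70.27 CPM at the lowest, median and highest. Replicate 4 lay below the control median and the other 4 above all controls, and the log2 fold change was 0.53 ± 0.11 (adjusted p = 0.00382) with it and 0.65 ± 0.08 without it. Plvap (ENSMUSG00000034845, chr8:71497765-71511752, minus strand), which overlaps Gtpbp3, gave the largest CPM difference. Its KO RFD libraries held 325.3, 272, 247.2 and 252.6 CPM against 140.7, 148.2, 148 and 135.8 CPM, a log2 fold change of 0.94 ± 0.20 (fold 1.92, adjusted p = 0.0096). On HFD the KO libraries held 307.4, 302.5, 283.2, 137.8 and 282.6 CPM and the controls 105.4, 157.2 and 195.5 CPM at the lowest, median and highest. Replicate 4 stood at less than the control median. Plvap rose by 0.80 ± 0.17 (fold 1.74, adjusted p = 0.00622), and by 0.96 ± 0.13 without that library.

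Vegfa (ENSMUSG00000023951, chr17:46016993-46032369, minus strand), the ligand, did not follow its receptors. Its KO RFD libraries held 710.5, 728.9, 657.8 and 489.2 CPM and its control RFD libraries 557.8, 585.1, 654.2 and 681.3 CPM. With HFD the KO libraries held 527.1, 589.2, 689.9, 597.4 and 735.7 CPM and the controls 562.9, 647.9 and 747.5 CPM at the lowest, median and highest. The groups overlapped on both diets. The log2 difference was 0.06 ± 0.13 on RFD (95% interval -0.21 to 0.33, adjusted p = 0.834) and -0.06 ± 0.11 on HFD (-0.29 to 0.17, adjusted p = 0.808). Without KO HFD replicate 4 the HFD difference was -0.04 ± 0.12 (adjusted p = 0.851).

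The sum of the 9 markers gave the same picture as the single genes. It was 485.3 ± 13.77 CPM (mean ± SD, n = 4) in control RFD and 814.3 ± 52.23 CPM (n = 4) in KO RFD islets, with ranges of 468.8 to 497.3 and 751.2 to 877.8. On HFD it was 502.1 ± 49.95 CPM (n = 6) in controls, which ran from 441.6 to 562.1, and 763.8 ± 154.7 CPM (n = 5) in KO islets. Replicate 4 held 496.1 CPM and the other 4 KO libraries 767.8 to 874.5. The file names number 2 sequencing lanes for this experiment. Within each lane and diet all 9 markers had a higher mean log2 CPM in KO islets, with median differences of 0.75 (RFD, lane 7, 3 KO and 2 control libraries), 0.63 (RFD, lane 8, 1 and 2), 0.54 (HFD, lane 7, 2 and 3) and 0.48 (HFD, lane 8, 3 and 3). The 19 libraries do not come with a statement of separate animals, so p-values measure the spread between these libraries.

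**Figure D3:**
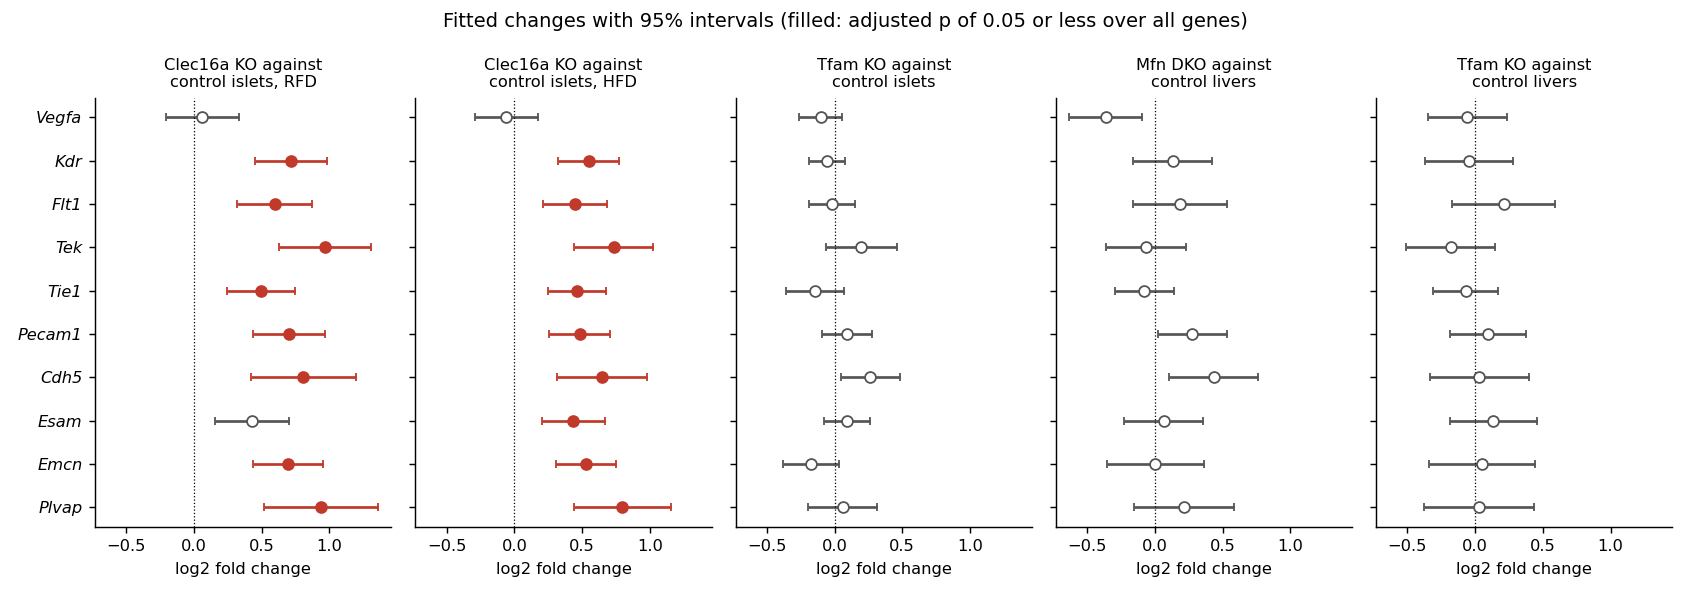
Log2 fold change of each gene in 5 comparisons, with 95% intervals. Filled points mark an adjusted p of 0.05 or less, which holds for 8 markers on RFD and 9 on HFD in the Clec16a islets and for no gene in the Tfam islets (both sexes together) or the livers.

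Diet itself made no difference that was called for any of the 10 genes. HFD against RFD called 0 of 10 in control islets (0.0406% of all genes called) and 0 of 10 in KO islets (0.0116%) with edgeR. DESeq2 called 0 of the 9 markers, and 0 of the 9 had an unadjusted p under 0.05, in either comparison. Log2 differences of the markers ran from -0.14 (Esam) to 0.17 (Pecam1) in controls and from -0.19 (Tek) to -0.02 (Cdh5) in KO islets. The interaction of genotype and diet likewise called 0 of 10, against 0% of all genes, with 0 of the 9 markers called by DESeq2 and 0 at an unadjusted p under 0.05. Its 95% intervals still allow sizeable differences, from -0.68 to 0.21 for Tek and from -0.69 to 0.41 for Plvap.

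Many other genes of endothelial cells rose as well. The lists below were drawn up with earlier results of these data known. Their HFD counts are to be read beside the 970 higher and 682 lower of 17254 genes called with all libraries. Counts without replicate 4 are to be read beside the 1763 higher and 1606 lower of 16860 genes called in that fit. Of 22 further pan-endothelial genes, 17 were called higher and none lower on RFD, and 17 and none on HFD (20 without replicate 4). Their median log2 fold changes were 0.70 and 0.66. Eng, a co-receptor for TGF-beta family ligands on endothelium, held 97.26 to 125.6 CPM in KO RFD and 48.33 to 61.55 CPM in control RFD libraries. On HFD Eng averaged 119.1 CPM in KO and 59.94 CPM in control islets (log2 0.99 ± 0.19, adjusted p = 0.00293), with replicate 4 at the 50.23 CPM bottom of the KO range. Cd34, a surface sialomucin, rose by 0.71 ± 0.13 on RFD (adjusted p = 0.00438) and by 0.82 ± 0.11 on HFD (0.00034), and its groups overlapped on neither diet. Cd93, a lectin-like surface receptor, rose by 0.73 and Nos3, the endothelial nitric oxide synthase, by 0.69 on RFD. Clec14a rose by 0.87 and Myct1 by 0.92 on HFD.

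Of 16 transcription factors of endothelial cells, 8 were called higher on RFD and 9 on HFD (10 without replicate 4), none lower, with medians of 0.68 and 0.59. Elk3, an ETS factor, rose by 1.02 ± 0.17 on RFD (88.72 against 43.69 CPM, adjusted p = 0.00351) and by 0.80 ± 0.15 on HFD. The ETS factor Erg rose by 0.74 on RFD (8.498 against 5.076 CPM) and Ets1 by 0.56 on HFD (21.31 against 14.48 CPM). Sox7 rose by 1.16 and Klf4 by 0.86 on RFD, and Mef2c by 0.98 and Gata2 by 0.61 on HFD.

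In the VEGF pathway outside the members, 4 of 14 genes were called higher on RFD and none lower. These were Flt4, the receptor for VEGF-C (20.39 against 11.32 CPM, log2 0.85 ± 0.18, adjusted p = 0.00836), the co-receptors Nrp1 (0.52) and Nrp2 (0.60), and Epas1 (0.53), which encodes HIF-2 alpha. On HFD Epas1 (0.58) and Egln3 (1.83), an oxygen-sensing hydroxylase, were called higher and the ligand Vegfb lower (-0.56), while Flt4 (0.46, adjusted p = 0.0574) was not called. Without replicate 4 the HFD count was 5 higher and 1 lower. Of 3 tested angiopoietin genes, Ptprb, a phosphatase that acts on TEK, rose on both diets (0.69 and 0.62), and neither angiopoietin was called. Of 14 genes linked to vessel sprouting, 8 rose on RFD and 5 on HFD (6 without replicate 4), none fell. Apln (1.15), Notch4 (0.74) and Esm1 (120.3 against 75.31 CPM, 0.68) were among them on RFD, and Unc5b (1.95) and Igfbp3 (0.71) on HFD.

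Genes of other vessel-associated cells moved too, and their part in the marker result was not tested. Of 8 pericyte genes, 3 were called higher on RFD and 4 on HFD (6 without replicate 4), none lower. The receptor Pdgfrb rose by 0.70 and 0.64, Notch3 by 0.62 and 0.70 and Rgs5 by 0.79 and 0.80. The summed level of the 8 was 123 to 143.4 CPM in control RFD and 192.9 to 251.5 in KO RFD, and 113 to 167.8 in control HFD and 127.1 to 309.8 in KO HFD libraries. Of 11 fibroblast and stellate genes 1 rose on RFD (Col1a2, 0.66) and 4 on HFD (5, with 1 lower, without replicate 4). Their sums overlapped on both diets, 44.46 to 54.87 against 48.48 to 98.93 CPM on RFD and 36.73 to 72.49 against 61.9 to 108.7 on HFD. Of 4 smooth muscle genes 0 were called on RFD and 2 (Acta2, 0.79, and Myh11, 0.53) on HFD (3 without replicate 4), with sums of 19.01 to 21.44 against 18.01 to 37.94 and of 14.04 to 21.77 against 18.17 to 33.48 CPM. Neither list had a gene at 0 throughout a group.

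Markers of cells outside the vessel wall gave calls in both directions. Over all genes tested 3.99% were called higher and 3.54% lower on RFD, and 5.62% and 3.95% on HFD. Of 8 tested macrophage genes 1 fell on each diet (C1qa) and none rose. The sum of all 11 ran from 178.3 to 208.7 CPM in control RFD and 123.3 to 178.8 in KO RFD, and from 125.7 to 221.9 and 119.4 to 203.8 on HFD, with Vsig4 at 0 in all 4 groups. Of 14 exocrine acinar genes 0 were called on either diet by edgeR, with median log2 differences of -0.41 and -0.29 and sums that overlapped (4881 to 10740 against 2118 to 14410 CPM on RFD). Of 9 blood genes Hbb-bt, a beta globin, rose and Cd79a, of B cells, fell on RFD, and Cd79a fell on HFD. The blood list had 8 of 9 genes with positive differences on each diet (medians 1.37 and 0.59), and its sums overlapped, at 24.23 to 46.09 against 26.63 to 97.27 CPM on RFD and 26.7 to 60.85 against 27.18 to 86.46 CPM on HFD. Its part in the marker result was not tested. Of 9 beta cell genes Slc2a2 alone was called, lower on both diets (-1.47 and -1.26), but 4 were called lower on HFD without replicate 4 and 4 with DESeq2. The beta cell sums overlapped on RFD, at 211300 to 349400 CPM in control and 197200 to 230400 in KO libraries. On HFD the controls held 234000 to 340100 CPM and KO replicate 4 held 251200. The other KO HFD libraries, at 139100 to 223600 CPM, lay below all controls. The part of this in the marker result was not tested. Of 7 alpha, delta and PP cell genes 0 were called by edgeR on either diet. Of 7 duct genes Spp1 rose on both diets. Of 3 platelet genes 0 were called on either diet by edgeR, though 1 was called higher on HFD without replicate 4 and 1 with DESeq2, and of 9 hepatocyte genes 0 were called on RFD and 2 (Tat and Apoa1) lower on HFD. Lyve1, shared by lymphatic vessels and liver sinusoids, went the other way from the 9 markers. It held 14.53 CPM in control RFD against 4.182 in KO RFD (-1.81 ± 0.41, adjusted p = 0.0126) and 14.24 against 3.914 on HFD (-1.81 ± 0.36, adjusted p = 0.00375). Its lists did not move as a whole. Of 3 tested lymphatic genes 1 rose (Flt4) and 1 fell on RFD, and 0 rose and 1 fell on HFD (1 and 2 without replicate 4). Of 9 tested sinusoidal genes 0 rose and 1 fell on RFD, and 2 rose and 1 fell on HFD, with or without replicate 4.

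As background for the KO islets themselves, 10 of 14 targets of the stress factor ATF4 rose on RFD and 11 on HFD (13 without replicate 4). Of 17 tested entries of the hypoxia list, where a gene name can have more than 1 entry, 1 rose on RFD and 4 on HFD. Without replicate 4 the HFD count was 4 higher and 3 lower. Adm and Egln3, which respond to low oxygen, were among the called genes. Vegfa, itself a member of that list, was called on neither diet. In Tfam KO islets 14 of 14 ATF4 targets were called higher, and of 17 hypoxia entries 7 were called higher and 3 lower. Over all genes tested there 11.6% were called higher and 9.29% lower.

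The Tfam KO islets were a contrast. None of the 9 markers and not Vegfa was called over both sexes by edgeR or by DESeq2, and 1 marker, Cdh5, had an unadjusted p under 0.05. Over all 19752 genes tested 20.9% were called, 11.6% higher and 9.29% lower. The markers' log2 fold changes ran from -0.17 (Emcn) to 0.26 (Cdh5) with a median of 0.06, against -0.01 for all genes tested. The sum of the 9 was 427.6 ± 36.49 CPM (n = 5) in female and 452.8 ± 28.3 CPM (n = 3) in male controls, and 414.1 ± 41 CPM (n = 4) in female and 486.5 ± 7.233 CPM (n = 2) in male KO islets. Female ranges overlapped (376.9 to 472.6 in KO, 378.4 to 472.3 in controls), as did male ranges (481.4 to 491.6 and 430 to 484.5).

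For the VEGF receptor Kdr the female control libraries held 88.63, 91.61, 94.03, 78.73 and 92.45 CPM and the female KO libraries 77.68, 100, 84.01 and 87.76 CPM. In males Kdr stood at 96.14, 106.5 and 98.95 CPM in controls and 97.45 and 90.11 CPM in KO islets. The log2 difference over both sexes was -0.05 ± 0.06 with a 95% interval of -0.19 to 0.08. That interval lies below the 0.72 and 0.55 seen for Kdr in the Clec16a islets. For Plvap the interval, -0.20 to 0.31, lies below the RFD and HFD estimates as well. Vegfa held 482.1, 488.7, 350.6, 395.9 and 428.8 CPM in female and 493.5, 480.9 and 454.4 CPM in male controls. The KO libraries were closely spaced, at 425.6, 406.8, 426.5 and 409.8 CPM in females and 415.2 and 402.6 CPM in males. Vegfa differed by -0.10 ± 0.07 (adjusted p = 0.369), and its KO libraries lay within the range of the controls of both sexes together. In males both KO libraries lay below all male controls, but the difference was not called (-0.22 ± 0.12, adjusted p = 0.304 with edgeR). In females the groups overlapped (-0.04 ± 0.09).

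By sex, 0 markers were called in females (10.8% of all genes called, 0 of 9 at an unadjusted p under 0.05, 0 with DESeq2) and 1 in males (8.93%). In males 4 of 9 markers had an unadjusted p under 0.05 with edgeR (Tek, Cdh5, Esam and Pecam1), all higher in KO islets. Over all genes 4680 of 19752 did so. Of the 9 markers 5 had a positive log2 fold change in males, with a median of 0.26. The male gene called was Cdh5, at 26.27 and 21.51 CPM in KO and 17.28, 15.96 and 15.18 CPM in control islets, without overlap. Its log2 fold change was 0.57 ± 0.15 (adjusted p = 0.0277 with edgeR). The call rests on 2 KO libraries and was lost when any of 4 of the 5 male libraries was left out, with adjusted p up to 0.277. It was lost too with the exocrine genes' mean level as a covariate (adjusted p = 0.0584). In females Cdh5 held 17.87, 21.39, 17.86 and 18.02 CPM in KO and 17.44, 13.48, 20.83, 17.72 and 18.45 CPM in control islets. The interaction of genotype and sex called 0 of 10 genes, against 0% of all genes, with edgeR, and DESeq2 called 0 of the 9 markers. For Cdh5 it was 0.47 ± 0.19 (unadjusted p = 0.0245, adjusted p = 0.709), and Esam was the other marker with an unadjusted p under 0.05. Over both sexes Cdh5 was called without Tfam control female replicate 3 (adjusted p = 0.028).

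Other vascular genes of the Tfam KO islets were called in both directions or not at all. Of the 22 further pan-endothelial genes 0 were called by edgeR or by DESeq2. Of the 16 transcription factors none rose and 4 fell. Elk3 fell by 2.78 ± 0.13 (6.217 against 42.51 CPM, adjusted p = 3.67e-10), Mef2c by 0.45, Hhex by 0.36 and Ets2 by 0.17. Elk3 thus moved in opposite directions in the 2 KO islet sets. Angpt2, an angiopoietin that loosens vessels, fell by 0.52 and the ligand Pgf by 0.67, while Egln3 rose by 2.16. Of the 14 sprouting genes 3 rose (Unc5b by 1.59, Jag1 by 0.87, and Igfbp3) and 4 fell (Angpt2, Pgf, Dll4 and Nid2), where Igfbp3, Dll4 and Nid2 are named to complete the count, after their values were seen. Of the 8 pericyte genes Rgs5 fell. All 9 beta cell genes fell as well, Ins1 by 1.26 and Ins2 by 0.93, in the islets whose endothelial markers were not called.

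The 2 islet experiments share no library, and a fit of all 33 islet libraries, added after the data were seen, tested whether the Clec16a effect (averaged over diets) differed from the Tfam effect (over sexes). It called 7 of the 9 markers, all with the larger effect in the Clec16a islets, against 16.3% of all genes called, 8.71% in that direction and 7.57% in the other. The differences in log2 fold change were 0.79 for Plvap, 0.78 for Emcn, 0.72 for Kdr, 0.63 for Tek, 0.62 for Tie1, 0.57 for Flt1 and 0.48 for Pecam1, with adjusted p from 4.96e-05 (Kdr) to 0.00845 (Tek). Cdh5 (0.42, adjusted p = 0.0924) and Esam (0.32, adjusted p = 0.0687) were not called, and were called without replicate 4 of KO HFD (0.0319 and 0.0187). Vegfa was not called (0.16 ± 0.12, adjusted p = 0.442). The same fit called 19 of the 22 further pan-endothelial genes and 11 of the 16 transcription factors in that direction. The experiments also differ in depth, and sex is labelled for the Tfam islets alone. The part of depth and of sex in the difference was not tested.

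**Figure D4:**
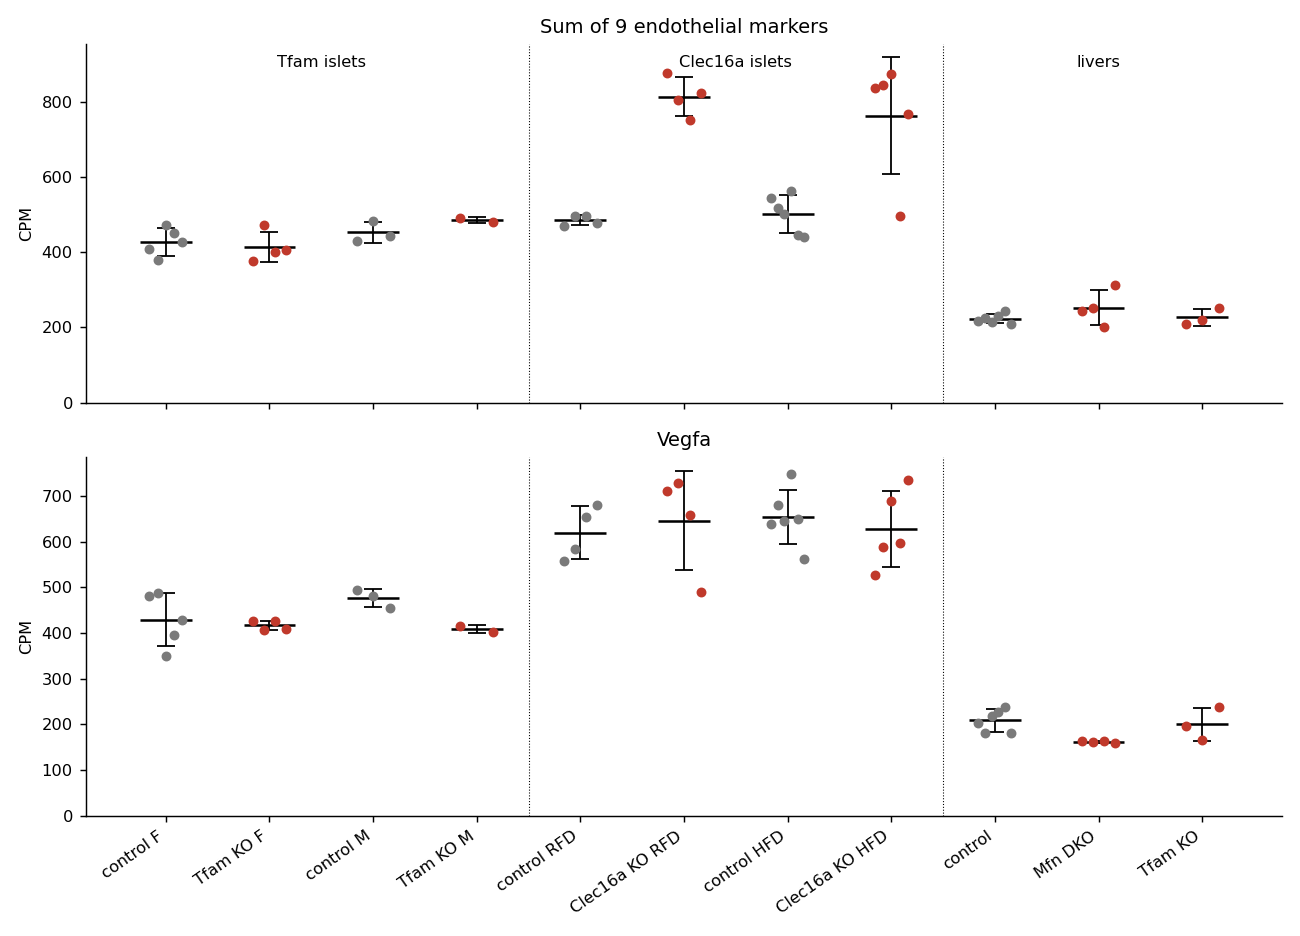
Sum of the 9 markers (top) and Vegfa (bottom) in every library of the 11 groups, in TMM-scaled CPM. The marker sum is raised in the 2 Clec16a KO groups, near 764 and 814 CPM on average against 414 to 502 CPM in the other islet groups, while Vegfa separates mainly by experiment.

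In the livers none of the 10 genes was called in any comparison by edgeR. In the Mfn DKO livers 9.87% of 17024 genes were called, 5.23% higher and 4.64% lower. The markers' log2 fold changes ran from -0.08 (Tie1) to 0.43 (Cdh5), with a median of 0.13, and DESeq2 called 0 of the 9. Cdh5 and Pecam1 had an unadjusted p under 0.05. Cdh5 held 38.12, 35.19, 27.45 and 49.1 CPM in Mfn DKO livers against 24.03, 26.68 and 32.84 CPM at the lowest, median and highest in controls. DKO replicate 3 lay among the controls and the other 3 above them. The log2 difference was 0.43 ± 0.15 (adjusted p = 0.0897), and 0.56 with an adjusted p of 0.0467 without DKO replicate 3. Pecam1 held 25.77, 31.05, 22.27 and 36.26 CPM against 22.86 to 24.61 CPM in controls (0.28 ± 0.12, adjusted p = 0.148).

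Vegfa in the Mfn DKO livers held 164.2, 161.3, 164.3 and 159.1 CPM, below all 6 controls, whose lowest, median and highest were 180.3, 211.5 and 239.1 CPM. The log2 difference was -0.36 ± 0.13 (adjusted p = 0.082 with edgeR). It was called by DESeq2 (adjusted p = 0.0174) and when only the 2 groups were fitted (0.0149), so the call turns on the tool and on which libraries share the fit. On the authors' CPM, without TMM scaling, the Vegfa groups overlapped and the log2 ratio of means was -0.17, against a median of 0.21 over all genes on that scale.

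In the Tfam KO livers 29.3% of genes were called, 18.1% higher and 11.3% lower, yet 0 of the 9 markers, 0 with DESeq2 and 0 at an unadjusted p under 0.05. Log2 fold changes ran from -0.18 (Tek) to 0.21 (Flt1). Kdr held 55.57, 39.27 and 67.28 CPM and Plvap 37.6, 55.29 and 52.5 CPM in the 3 KO livers, against 48.61 to 62.93 and 38.79 to 59.08 CPM in controls. Both overlapped the controls. Vegfa held 197.4, 166 and 237.7 CPM (-0.06 ± 0.14, adjusted p = 0.78). The scaling matters here. On the authors' CPM the median of all genes was raised by 0.43 in log2 relative to TMM scaling, and on the authors' TPM by 0.63, so that all 9 markers and Vegfa then lay higher in KO livers. Relative to the median of all genes, the markers' median stood at -0.003 on CPM and -0.01 on TPM. The same shift was 0.21 and 0.39 in Tfam KO islets, 0.19 and 0.30 in Mfn DKO livers, 0.12 and 0.19 in Clec16a KO HFD and at most 0.04 in Clec16a KO RFD islets. On all 3 scales the 9 markers lay higher in Clec16a KO islets, by a median of 0.70 to 0.71 over all genes on RFD and 0.53 to 0.55 on HFD. On the authors' CPM and TPM all 9 also lay higher in Tfam KO islets and in Mfn DKO livers. With TMM scaling 5 and 7 of the 9 did. Relative to the median of all genes, the markers' median on CPM and TPM was 0.08 in Tfam KO islets and 0.11 in Mfn DKO livers.

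Both liver comparisons share the 6 control libraries. Set directly against each other, Tfam KO and Mfn DKO livers called 0.294% of all genes and none of the 10, by edgeR or by DESeq2 among the 9 markers. The all-gene count rests on 1 library: it was 50 of 17024 genes with all libraries and 4204 of 17552 without Tfam KO replicate 3, where 0 of the 9 markers were called. With all libraries Cdh5 had an unadjusted p under 0.05 (-0.40 ± 0.18, adjusted p = 0.24). Vegfa differed by 0.30 ± 0.15 (adjusted p = 0.256), with the 3 Tfam KO livers above the 4 Mfn DKO livers.

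Calls among other vascular genes in liver were fewer in Mfn DKO than in Tfam KO livers, and are to be read beside the 9.87% and 29.3% of all genes called. Of the 22 further pan-endothelial genes Cd34 rose in Mfn DKO livers (2.248 against 1.221 CPM, 0.88 ± 0.25, adjusted p = 0.0411). In Tfam KO livers Cd34 (2.448 against 1.221 CPM) and Cd93 (8.372 against 5.699 CPM) rose and S1pr1, a receptor that steadies vessel walls, fell by 1.03. Of 15 tested genes of liver sinusoidal endothelium 0 were called in Mfn DKO livers, and in Tfam KO livers Lyve1 rose by 1.91 and Wnt2, a signal that sinusoidal cells send to hepatocytes, fell by 1.05. Over 16 alternative settings the Tfam KO liver counts for these sinusoidal genes ran from 0 to 1 higher and from 0 to 6 lower. For the sprouting genes below they ran from 0 to 7 higher and from 0 to 1 lower. The Lyve1 group ran from 11.34 to 87.39 CPM, so its rise was carried unevenly by the 3 libraries. Of the VEGF pathway Epas1 fell by 0.80 and Hif1a rose by 0.80 in Tfam KO livers, and 0 of 13 were called by edgeR in Mfn DKO livers. Elk3 fell in Tfam KO livers, to 5.204 CPM from 10.46 CPM in controls (adjusted p = 0.00097). Of 11 tested sprouting genes 5 rose in Tfam KO livers (6 with DESeq2) and none fell, against 18.1% of all genes higher, and 0 were called in Mfn DKO livers by edgeR (1 with DESeq2). Unc5b rose by 2.21, Jag1 by 1.89, Angpt2 by 1.53 and Esm1 by 2.98, the last 2 from means under 1 CPM in controls. Among markers of other vessel and stromal cells, the pericyte gene Rgs5 rose by 0.78 and the collagen gene Col1a1 by 1.27 in Mfn DKO livers, and Col1a1 by 1.46 in Tfam KO livers. Of the ATF4 targets 10 of 14 rose in Mfn DKO and 13 of 14 in Tfam KO livers.

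Finally, the members were compared for how they varied among libraries of 1 group, as deviations of log2 CPM from the group mean over all 46 libraries. Cdh5 (r = 0.79), Pecam1 (0.78) and Plvap (0.78) followed the mean of the other 8 markers most closely and Esam (0.48) least. Vegfa did not track the mean of the 9 over all libraries (r = -0.04), with -0.76 over 14 Tfam islet libraries, 0.07 over 19 Clec16a islet libraries and 0.24 over 13 livers. Among 11187 genes the 8 most like the marker mean were Ephb4 (r = 0.81), Parvb (0.79), Ifi30 (0.78), Eng (0.78), Acvrl1 (0.78), 6430548M08Rik (0.77), Pltp (0.76) and Grasp (0.76). The 5 most like Vegfa were Rgl3 (0.79), Per2 (0.79), Foxj2 (0.76), Per1 (0.76) and Plekhn1 (0.75), of which Per1 and Per2 are core genes of the circadian clock. The order of the 8 depends on replicate 4 of KO HFD: without it Ifi30 (0.80) and Pltp (0.79) led them, and the others were at 0.74 (Ephb4), 0.73 (Acvrl1), 0.70 (Parvb), 0.68 (6430548M08Rik), 0.68 (Eng) and 0.68 (Grasp). The 5 values for Vegfa were then 0.75 to 0.80. These correlations describe 46 libraries that differ in depth within an experiment and, in the Clec16a islets, in sequencing lane. They carry no test, and the part of depth and lane in them was not tested.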

How the data were processed

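The deposited files give, for each library, a read count per gene with the authors' TPM and CPM beside it. The submitters' processing notes name GRCm38, FastQC, featureCounts, MultiQC, DESeq2, STAR 2.6.1b and RSEM 1.3.1, with no role or order, and which of them made the count values is not given in the sources used here. Tested on the files, the deposited CPM was the count divided by the library total, and the deposited TPM was the count over a fixed gene length (8397 genes with at least 100 counts). Of 55487 identifiers 55141 were in GENCODE M21. Strand use in counting is not given in the sources used here.

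Each experiment was fitted on its own with edgeR 4.0.16 (R 4.3.3): TMM normalization, filterByExpr on the groups, 1 mean per group (for Tfam KO over both sexes, sex as an additive term), quasi-likelihood F-tests, with p adjusted by Benjamini-Hochberg across every gene that passed the filter (19752 in Tfam islets, 17254 in Clec16a islets, 17024 in livers, 19909 in the fit of both islet experiments). That last fit was added after the data were seen. CPM in the text is on TMM-scaled library sizes, and correlations used log2 CPM with a prior count of 2. Standard errors are the fold change divided by the root of F. DESeq2 1.42.0, other scalings and filters, leaving out each library, a replicate block and covariates were the alternatives. Python 3.11.15 with pandas 2.3.3, numpy 2.4.6 and matplotlib 3.10.9 made the summaries.

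The members and gene lists were chosen with earlier results of these data known. The named genes are the 10 members in every comparison, at most the 4 called genes with the smallest adjusted p of each other list, the targeted genes, and the genes most like the marker mean (8) or Vegfa (5). Eng on RFD and Flt4 on HFD are given beside the diet in which they were named. Replicate numbers were not taken to pair the libraries. Correlations of same-numbered libraries' deviations ran from -0.27 to -0.10 (Clec16a RFD), -0.04 to 0.35 (Clec16a HFD) and -0.24 to 0.20 (Tfam females). In livers they ran from -0.54 to 0.58 (Mfn DKO) and -0.06 to 0.42 (Tfam KO). For Tfam males they were 0.43 to 0.47, and 2 pairs are too few to decide whether the numbers pair those libraries. No 2 libraries agreed within sampling noise (smallest chi-square per degree of freedom 10.57). Tested on simulated data, 2-fold changes were recovered for 79.44% of changed genes in Tfam islets (19306 genes), 63.55% in Clec16a HFD islets (16992) and 34.02% in Tfam KO livers (16731). The labels do not say that replicates are separate animals.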

Additional observations from a re-analysis of the deposited data

Results flagged for a closer look

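In 7 of 80 groups of a member's values, 1 library stood far from the rest of its group by Dixon's criterion, where chance gives about 5%. Kdr stood at 78.17 CPM in Clec16a control RFD replicate 1, below the nearest of its group, and at 130.4 CPM in Clec16a KO RFD replicate 3, again the lowest of 4. Tfam KO female replicate 2 held 26.08 CPM of Tie1 and 21.39 CPM of Cdh5, both the highest of their group. Clec16a KO HFD replicate 4 held 27.81 CPM of Esam and 137.8 CPM of Plvap, the lowest of 5 in each case, and Mfn DKO liver replicate 3 held 3.025 CPM of Emcn, the lowest of 4.

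The genotype effect differed between the Clec16a and the Tfam islets for 7 of the 9 markers in the fit of both experiments, which was added after the data were seen. In that fit 16.3% of all genes were called, 8.71% with the larger effect in the Clec16a islets. Emcn differed by 0.7846, Tek by 0.6267, Tie1 by 0.6188, Kdr by 0.7219, Flt1 by 0.574, Plvap by 0.7884 and Pecam1 by 0.4795 in log2 fold change, each larger in the Clec16a islets.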

How the results depend on the processing

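The alternatives changed few calls for the members. Their direction and side of the threshold were kept in 151 of 160 values for Clec16a RFD, 183 of 190 for Clec16a HFD, 205 of 210 for Tfam islets, 155 of 170 for Mfn DKO livers, 144 of 160 for Tfam KO livers and 377 of 380 for the fit of both islet sets. With a replicate block 8 markers were called on RFD and 7 on HFD (Esam 0.05896 and Flt1 0.06677 were lost), and leaving out 1 library gave 7 to 9 on each diet. The number of called markers ran from 0 to 1 on leaving out 1 library in Tfam islets (both sexes, females and males) and in Mfn DKO livers. It was 0 in males with the exocrine covariate. The single calls were Cdh5 without Tfam control female replicate 3 and without Mfn DKO replicate 3, and 1 marker in females without KO replicate 2. 

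The values that changed sign had not been called, and the cause was not tested. Vegfa on RFD was -0.03012 with the exocrine covariate. In Mfn DKO livers Emcn was -0.004438 with DESeq2 size factors, -0.002941 with the DESeq2 Wald test and -0.01626 with the replicate block, and leaving out 1 library gave -0.05276 to 0.1131 for Emcn, -0.1049 to 0.1534 for Esam, -0.04117 to 0.321 for Flt1, -0.1778 to 0.002202 for Tek and -0.1622 to 0.01363 for Tie1. In Tfam islets Flt1 was 0.001055 with the replicate block and ran from -0.06721 to 0.01919 with 1 library out. In Tfam KO livers, with Xist as a covariate, Cdh5 was -0.03615 and Plvap -0.08512. With 1 liver library out the ranges were -0.144 to 0.1113 (Cdh5), -0.09054 to 0.2129 (Emcn), -0.00866 to 0.1934 (Esam), -0.2532 to 0.1414 (Kdr), -0.0749 to 0.1819 (Plvap) and -0.2171 to 0.06272 (Vegfa).

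Counts over all genes moved more. HFD calls were 1652, 975 with the replicate block, and 786 to 3369 with 1 library out, the highest without KO HFD replicate 4. RFD calls were 1298 and 523 to 1224 with 1 library out. Males gave 1764, 2708 with DESeq2 and 578 to 1543 with 1 library out, and females 2142 and 1336 to 2626. Mfn DKO livers gave 1681, 169 with the replicate block and 4338 when the compared groups were fitted alone, with 686 to 1444 on leaving out 1 library. Tfam KO livers gave 4992, 395 with the replicate block, 3228 alone and 2504 (without KO replicate 2) to 7330 (without KO replicate 3) with 1 library out. Tfam against Mfn livers gave 50, 6 to 1087 over other settings, and 24 to 4204 with 1 library out, the highest without Tfam KO replicate 3. Diet gave 7 (3 to 54) in control and 2 (0 to 42) in KO islets, genotype by diet 0 (0 to 20) and genotype by sex 0 (0 to 34).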

Other observations

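Stab1 and Stab2, scavenger receptors of sinusoidal endothelium and some macrophages, rose in Tfam KO islets. Stab1 rose by 0.69 ± 0.12 (10.36 against 6.42 CPM, adjusted p = 0.000735) and Stab2 by 0.79 ± 0.19 (5.344 against 3.055 CPM, adjusted p = 0.00717, both edgeR). Of 10 tested sinusoidal genes these 2 were called higher and 0 lower there, against 11.6% of all genes called higher and 9.29% lower. Unc5b, a netrin receptor of sprouting vessels, rose in Clec16a KO islets on both diets (1.44 and 1.95), in Tfam KO islets (1.59) and in Tfam KO livers (2.21). Bmp2, which sinusoidal endothelium supplies to hepatocytes, rose by 1.72 in Clec16a KO HFD islets, from 0.2808 to 0.9513 CPM.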
